A study of Homo sapiens with 2 samples.

Results

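The genes described here are 9 genes of the prostate secretory program: the kallikreins KLK2, KLK3, KLK4 and KLK15, the kallikrein pseudogene KLKP1, the membrane protease TMPRSS2, prostatic acid phosphatase (listed under its older symbol ACPP, now ACP3), the microseminoprotein gene MSMB and the zinc-alpha-2-glycoprotein gene AZGP1. They were chosen by gene symbol, and all 9 were found among the 25268 symbols of the deposited tables. Of the 9, 8 had a mean of at least 1 FPKM over both libraries and entered the comparison with all other genes. FPKM counts fragments relative to transcript length and to the size of the library, so it can be set side by side between genes of different length. The ninth, KLKP1, lay under that minimum and is given by its values only.

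The cells were C4-2B MDVR, a castration-resistant prostate cancer line derived from LNCaP cells and grown to resist enzalutamide, an antiandrogen, and both groups were kept in medium with 20 µM enzalutamide. One group was given DMSO, the vehicle, and the other 20 µM Indocin, the cyclooxygenase inhibitor indomethacin, for 3 days. Each group was 1 RNA-seq library of polyadenylated RNA from 1 cell line. No difference below therefore has a replicate check, an error across cultures, a test or a p-value, and every comparison is between these 2 libraries. Enzalutamide was present in both groups, and cultures without it or of the parental line were not analysed here.

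Kallikreins are secreted serine proteases whose genes lie side by side in 1 cluster. In the prostate, luminal epithelial cells secrete them into seminal fluid, where KLK3, known as prostate-specific antigen, cleaves the semenogelins of the semen clot and KLK2 can activate the KLK3 precursor. Androgen induces KLK2, KLK3 and TMPRSS2 through androgen response elements near these genes, so their transcripts are widely read as markers of the androgen response. ACPP, MSMB and AZGP1 encode other abundant proteins of prostatic fluid.

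The promoters of KLK3 and KLK2 are shown first, because these were the kallikreins with the lowest ratios and both hold a sequence close to the androgen response element. The promoters of KLK4, a kallikrein of the same cluster whose level differed little, and of AZGP1, the gene with the highest ratio of the 9, are shown for comparison. Each is the 300 bases from 250 before to 50 after the annotated start, 5′ to 3′ on the gene's own strand, from RefSeq on GRCh38.p14. Of the 9 genes 6 matched an entry, with 8 sequences, since KLK4 and KLK15 have more than 1 annotated start. TMPRSS2, MSMB and KLKP1 had no entry. The promoters shown were picked with their ratios known, so a link between promoter sequence and ratio was not tested. Capitals mark the 15-base window closest to the palindromic androgen response element (AGAACA, 3 bases of any kind, then TGTTCT), where it has at most 3 mismatches.
KLK3, chr19:50854665-50854964, plus strand: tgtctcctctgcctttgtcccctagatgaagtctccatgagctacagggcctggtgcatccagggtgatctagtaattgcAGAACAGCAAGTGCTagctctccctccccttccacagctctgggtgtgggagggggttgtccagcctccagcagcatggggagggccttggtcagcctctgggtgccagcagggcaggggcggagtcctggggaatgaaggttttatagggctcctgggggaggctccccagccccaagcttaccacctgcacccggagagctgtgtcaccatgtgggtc
KLK2, chr19:50873189-50873488, plus strand: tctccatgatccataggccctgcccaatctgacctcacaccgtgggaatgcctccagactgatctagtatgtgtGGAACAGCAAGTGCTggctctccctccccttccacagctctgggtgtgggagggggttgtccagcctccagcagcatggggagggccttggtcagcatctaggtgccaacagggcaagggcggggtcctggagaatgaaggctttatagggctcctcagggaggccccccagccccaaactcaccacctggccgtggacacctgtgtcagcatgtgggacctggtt
KLK4, chr19:50911346-50911645, minus strand: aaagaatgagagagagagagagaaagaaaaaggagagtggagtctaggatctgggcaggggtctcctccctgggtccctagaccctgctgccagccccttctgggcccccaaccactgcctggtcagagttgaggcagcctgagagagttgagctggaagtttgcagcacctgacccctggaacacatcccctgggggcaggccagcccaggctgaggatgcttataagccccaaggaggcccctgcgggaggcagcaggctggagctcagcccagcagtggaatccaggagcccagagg
AZGP1, chr7:99975982-99976281, minus strand: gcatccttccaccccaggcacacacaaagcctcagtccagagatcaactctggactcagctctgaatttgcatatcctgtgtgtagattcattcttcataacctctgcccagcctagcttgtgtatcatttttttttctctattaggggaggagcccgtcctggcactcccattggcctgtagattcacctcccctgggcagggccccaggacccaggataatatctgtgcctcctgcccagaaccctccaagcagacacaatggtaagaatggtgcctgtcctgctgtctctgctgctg

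In KLK3 the marked window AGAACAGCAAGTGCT lay at bases -170 to -156 from the start and had 2 mismatches to the palindrome, T10A and T13G (palindrome base, position from the 5′ end of the window, promoter base). In KLK2 the aligned window GGAACAGCAAGTGCT lay at -176 to -162 and had 3 mismatches, A1G, T10A and T13G. The 2 windows thus differed by A1G alone, from KLK3 to KLK2. A window with at most 2 mismatches was found in 1.41% of 35116 promoter sequences of the same length, and 1 with at most 3 in 10.8%. The best windows of KLK4 (at this start) and AZGP1 had 5 mismatches, a number that 89.2% of promoters reached or bettered. In the sequences searched but not shown, the best windows had 4 mismatches in ACPP, 5 at both KLK15 starts and 6 at the other KLK4 start. An exact copy of the palindrome occurred in 1 promoter of the 35116 and in none of the 8 shown or searched here.

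Over 288 aligned bases the KLK2 and KLK3 promoters were 85.1% identical, with an unbroken identical run of 80 bases. The half-site AGAACA, searched on both strands, was present in the KLK3 window only (14.8% of all promoters hold it). TATAAA, searched on both strands, was found on the opposite strand in KLK3 and KLK2, at -28 to -23 and -34 to -29, and on the plus strand of 1 KLK15 start (11.5% of all promoters). The forkhead motif TGTTTAC, also searched on both strands, was in none of the 8 sequences (3.42% of all promoters). These matches describe letters in a window, and binding was not measured.

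Levels of the 9 genes covered a wide range in both libraries. In the DMSO library the order was KLK2 (128.4 FPKM), TMPRSS2 (105.3), AZGP1 (76.5), KLK3 (71.7), KLK4 (43.5), ACPP (5.38), MSMB (3.18), KLK15 (1.49) and KLKP1 (0.497). In the Indocin library the order was the same from the third place down, and TMPRSS2 (109 FPKM) lay above KLK2 (93.7 FPKM). KLK2 and AZGP1 then lay side by side, at 93.7 and 92.5 FPKM. Without replicates it could not be said which neighbours in this order differ beyond the spread of a group. KLK2 lay above 97.1% of all genes with DMSO and above 96.0% with Indocin, KLK3 above 94.3% and 93.2%, and MSMB above 57.3% and 54.3% (short RNA genes left out).

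**Figure D1:**
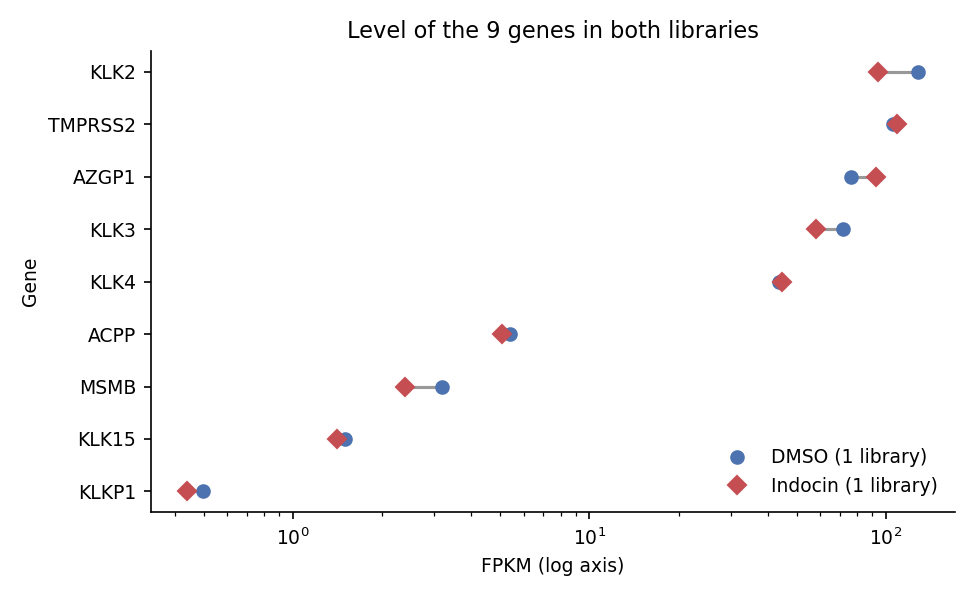
FPKM of each of the 9 genes (log axis) in the DMSO library (circles) and the Indocin library (diamonds), 1 library each, with a line joining the pair. KLK2, KLK3 and MSMB lie further left with Indocin, AZGP1 lies further right, and the marks of KLK4, TMPRSS2, ACPP and KLK15 nearly meet.

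KLK2, KLK3 and MSMB had lower values in the Indocin library by at least 1.2-fold, and AZGP1 a higher one by that fold. On the scale used throughout, the log2 ratio log2((Indocin FPKM + 1)/(DMSO FPKM + 1)), 3 of the 8 tested genes were thus at least 1.2-fold lower and 1 at least 1.2-fold higher. Of all 11967 tested genes 11.7% were at least 1.2-fold lower and 9.90% at least 1.2-fold higher. With the same upper quartile or with equal sums, KLK2 was the 1 member still at least 1.2-fold lower, and AZGP1 was still higher, while 838 and 801 of all tested genes were lower by that fold, against 1401 as deposited. None of the 8 was past 1.5-fold in either direction (0.752% of all tested genes lower, 2.19% higher). The median ratio of the 8 was -0.06, against -0.03 for all tested genes, and 5 of the 8 ratios were below 0, while 55.2% of all tested genes were below 0 and 44.8% above. The ratios thus lay on both sides of 0. The summed level of all 9 genes was 435.9 FPKM with DMSO and 407.4 FPKM with Indocin, a difference of -6.56%. As a share of all FPKM it was 0.0706% and 0.0699%, and the sum over all genes was also smaller with Indocin.

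**Figure D2:**
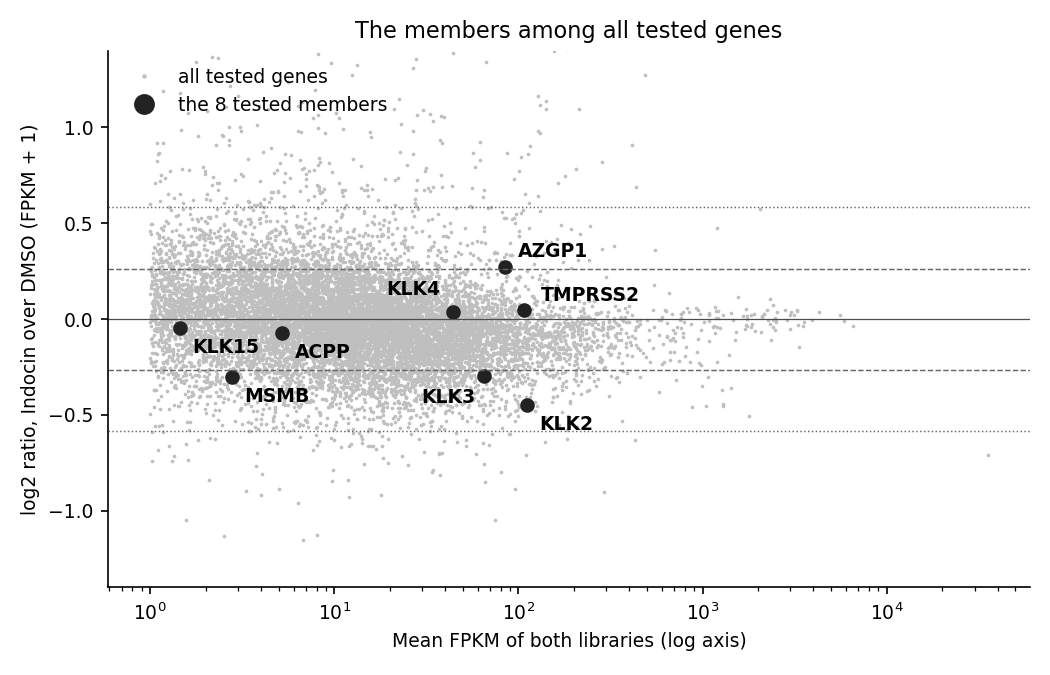
Log2 ratio of Indocin over DMSO (FPKM + 1) against the mean FPKM of both libraries (log axis) for all 11967 tested genes (grey) and the 8 tested genes of this group (black). Dashed lines mark 1.2-fold and dotted lines 1.5-fold. KLK2, KLK3 and MSMB lie under the lower dashed line and AZGP1 just above the upper one. 44 genes lie beyond the plotted range of 1.4 in size.

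KLK2 encodes human kallikrein 2, a trypsin-like protease. Its level was 128.4 FPKM with DMSO and 93.7 FPKM with Indocin, a difference of -27.0% (log2 ratio -0.45). A lower ratio was found for 2.54% of tested genes, and 3.08% of the 1364 tested genes within 2-fold of its mean level. This was the lowest ratio of the 9 genes, and it stayed past 1.2-fold under every setting tried, between -0.45 and -0.37.

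KLK3 was at 71.7 FPKM with DMSO and 58.1 FPKM with Indocin, a difference of -18.9% (log2 ratio -0.30). Of all tested genes 8.99% had a lower ratio, and 11.6% of the 2260 genes of like level. It was short of 1.2-fold after upper-quartile scaling (-0.23), after scaling to equal sums (-0.22) and after removal of a trend with length, GC content and level (-0.23). Its place among all genes moved little, with 9.46% of tested genes lower after upper-quartile scaling. KLK2 was 1.79 times KLK3 with DMSO and 1.61 times with Indocin. These are close paralogs, and 11 of the 2653 stretches of 50 bases in the longest KLK3 transcript of GENCODE release 29 also occur in a KLK2 transcript. How the authors assigned shared reads is not given in the sources used here.

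KLK4, a trypsin-like protease that is made in the prostate and in forming tooth enamel, did not follow KLK2 and KLK3. It was listed at 43.5 FPKM with DMSO and 44.7 FPKM with Indocin, 2.79% higher (log2 ratio 0.04). The ratio of KLK2 to KLK4 was 2.95 with DMSO and 2.10 with Indocin, and that of KLK3 to KLK4 was 1.65 and 1.30. These ratios within a library do not depend on how the libraries were scaled to each other.

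KLK15, a low-level member that can activate the KLK3 precursor in vitro, was at 1.49 and 1.41 FPKM in the DMSO and Indocin libraries (-0.05). KLKP1, a pseudogene between KLK2 and KLK4 that is transcribed in prostate cells, was at 0.497 and 0.441 FPKM, under the minimum mean. In the DMSO library KLK4 was 87.5 times and in the Indocin library 101.4 times the level of KLKP1. The values of KLK15 and KLKP1 were slightly smaller with Indocin, and the number of fragments behind them is unknown.

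All 16 genes of the kallikrein family list, KLKP1 included, were in the tables, and KLK2, KLK3 and KLK4 had by far the highest levels. In the chromosomal order of RefSeq (GRCh38.p14, used here for neighbours only) they run KLK1, KLK15, KLK3, KLK2, KLKP1, KLK4 and then KLK5 to KLK14. KLK2, KLK3 and KLK4 together made up 98.9% of the summed FPKM of the 16 with DMSO and 98.8% with Indocin. KLK1, tissue kallikrein, was at 0.535 and 0.384 FPKM. KLK14 was at 0.153 and 0.122 FPKM, and the 9 genes KLK5 to KLK13, many of which are skin proteases, were each under 0.1 FPKM in both libraries, with KLK7, KLK9, KLK11 and KLK12 listed at 0 in both. A listed 0 was not read as absence. The summed level of the family was 246.3 FPKM with DMSO and 199 FPKM with Indocin, a difference of -19.2% that was made up by KLK2 and KLK3, or 0.0399% and 0.0341% of all FPKM. Its 4 tested genes, KLK2, KLK3, KLK4 and KLK15, all belong to the group described here, so their counts and median repeat values given above. Of the 4, 2 were at least 1.2-fold lower and none higher, beside 11.7% and 9.90% of all tested genes. With the same upper quartile or equal sums 1 of the 4, KLK2, was lower by that fold. The median ratio of the 4 was -0.17 (-0.12 with the same upper quartile).

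**Figure D3:**
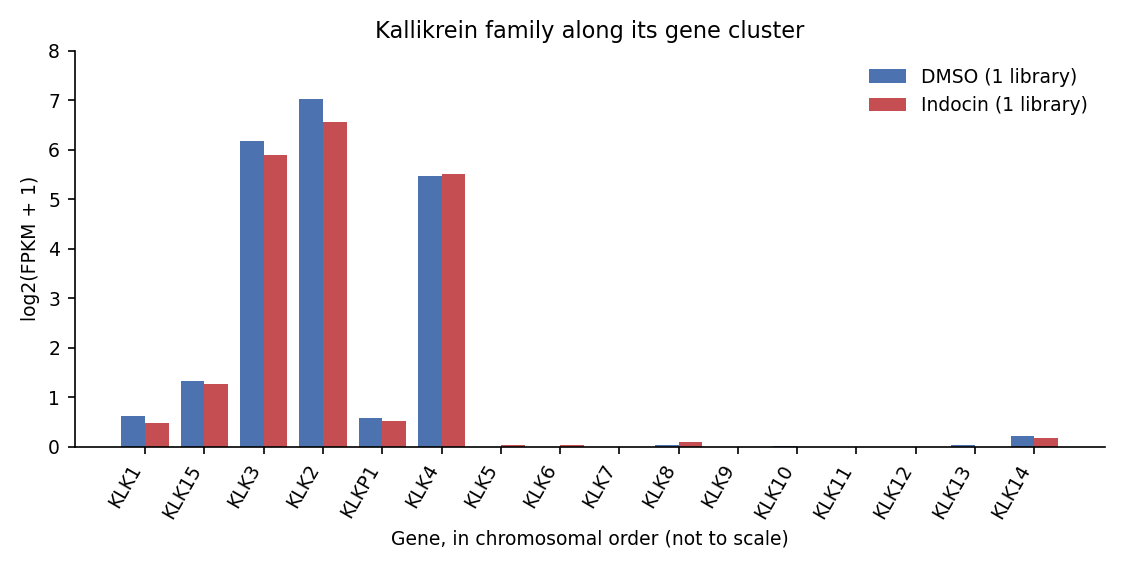
log2(FPKM + 1) of the 16 kallikrein family genes in chromosomal order (not to scale) in the DMSO and Indocin libraries, 1 library per bar. The bars of KLK3, KLK2 and KLK4 stand far above the rest, and the pair of KLK4 bars is level while the Indocin bars of KLK3 and KLK2 are shorter.

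TMPRSS2 encodes a membrane-anchored serine protease of luminal cells, and its promoter drives the common gene fusions with ERG in prostate cancer. It was at 105.3 FPKM with DMSO and 109 FPKM with Indocin, 3.50% higher (log2 ratio 0.05). KLK2 was 1.22 times TMPRSS2 with DMSO and 0.860 times with Indocin. ERG, the usual fusion partner, was listed at 0.0685 and 0.0470 FPKM.

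Of 9 membrane-anchored serine proteases, TMPRSS2 among them, 5 were tested, and 3 of these were higher with Indocin by at least 1.2-fold and none lower. HPN, the hepsin gene, was at 17.6 and 23.5 FPKM (log2 ratio 0.39), PRSS8, which encodes prostasin, at 49.9 and 61.2 FPKM (0.29) and TMPRSS13 at 2.865 and 3.75 FPKM (0.30). ST14, the matriptase gene, was at 63.1 and 60.9 FPKM (-0.05, but 0.02 with the same upper quartile). Of all tested genes 9.90% were at least 1.2-fold higher (1774 of 11967 with the same upper quartile). The median of the 5 was 0.29, but 0.15 with a pseudocount of 5 FPKM. With a minimum mean of 5 FPKM, which left out TMPRSS13 (mean 3.31 FPKM), the median was 0.17. The ratio of TMPRSS2 was under those of HPN, PRSS8 and TMPRSS13, and the other 4 genes of the list were under 1 FPKM in both libraries.

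ACPP encodes prostatic acid phosphatase, one of the earliest serum markers of prostate cancer. It was at 5.38 FPKM with DMSO and 5.07 FPKM with Indocin (log2 ratio -0.07), and 39.5% of tested genes had a lower ratio. MSMB encodes beta-microseminoprotein, among the most abundant proteins of normal prostatic fluid. It was at 3.18 and 2.39 FPKM, a difference of -24.8% (log2 ratio -0.30), and 6.84% of the 2850 genes of like level had a lower ratio. Its longest transcript in GENCODE release 29 is 488 bases, the shortest of the 9, so for a transcript of that length a given FPKM rests on fewer fragments than in the other 8 genes. The ratio of MSMB moved with the pseudocount, from -0.40 at 0.1 FPKM to -0.15 at 5 FPKM, and was under 1.2-fold with the same upper quartile (-0.25).

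AZGP1 encodes zinc-alpha-2-glycoprotein, a secreted lipid-mobilising protein with the fold of MHC class I. It was the gene with the highest ratio, at 76.5 FPKM with DMSO and 92.5 FPKM with Indocin, 20.9% higher (log2 ratio 0.27). Of all tested genes 9.45% had a higher ratio, and 5.24% of the 1795 genes of like level. AZGP1 was 1.07 times KLK3 with DMSO and 1.59 times with Indocin. Its pseudogene AZGP1P1, which holds 145 of the 1978 stretches of 50 bases of the longest AZGP1 transcript, was at 1.88 and 1.65 FPKM (-0.12). The pseudogene was low in both libraries and its ratio lay on the other side of 0. With a pseudocount of 5 FPKM the AZGP1 ratio was 0.26, just under 1.2-fold.

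Proteins that act on or with these products were looked at from lists. Of 10 protease inhibitors 3 were tested and 1 of them was past 1.5-fold: SERPINA3, antichymotrypsin, which binds prostate-specific antigen in blood, was at 0.325 FPKM with DMSO and 2.02 FPKM with Indocin (log2 ratio 1.19). The DMSO value was under 1 FPKM, so the gene passed the minimum mean through the Indocin library. Among all tested genes 2.19% were at least 1.5-fold higher. SPINT1 and SPINT2, Kunitz inhibitors of membrane serine proteases, were level, at 91.3 and 93.1 FPKM (0.03) and at 180.1 and 180.3 FPKM (0.00). SERPINA5, the protein C inhibitor of seminal plasma, was listed at 0.0113 FPKM with DMSO and 0 with Indocin.

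Of 12 substrates and receptors 5 were tested and none was past 1.2-fold as deposited, with a median of 0.00. F2RL1, a protease-activated receptor that trypsin-like kallikreins can cleave, was at 34.5 and 28.7 FPKM (-0.26). HGF, a growth factor that membrane serine proteases can activate, was at 7.67 and 9.17 FPKM (0.23), and its receptor MET at 0.886 and 1.198 FPKM (0.22). MET, like SERPINA3, passed the minimum mean through its Indocin value. IGFBP3, an IGF-binding protein that KLK3 can cleave, was at 51.4 and 51.1 FPKM (-0.01, but 0.06 with the same upper quartile). With either scaling to the upper quartile or to equal sums 1 of the 5 was at least 1.2-fold higher. By that fold 1774 and 1843 of all 11967 tested genes were then higher. The semenogelins SEMG1 and SEMG2, the main substrates of KLK3 in semen, were listed at 0 with DMSO and at 0.0273 and 0.0109 FPKM with Indocin.

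Among 11 other seminal plasma and secretory genes 5 were tested, and LCN2, an iron-carrier binding protein, was the 1 past 1.5-fold. It was at 4.09 and 12.3 FPKM (log2 ratio 1.38), and 2.19% of all tested genes were at least 1.5-fold higher. CLU, the secreted chaperone clusterin, was at 26.8 and 22.7 FPKM (-0.23), PSAP, prosaposin, at 333.9 and 365 FPKM (0.13) and CST3, cystatin C, at 77.4 and 72.6 FPKM (-0.09). The median of the 5 was -0.03 and turned to 0.01 with the same upper quartile. Of 8 relatives of ACPP, MSMB and AZGP1, 6 were tested and 1 was past 1.2-fold, beside 9.90% of all tested genes that were higher by that fold. This was MSMP, a relative of MSMB, at 8.19 and 10.3 FPKM (0.30), on the other side of 0 from MSMB. ACP6, a lysophosphatidic acid phosphatase, was at 11.2 and 13.1 FPKM (0.21) and passed 1.2-fold with the same upper quartile (0.27) or equal sums (0.28). FCGRT, the neonatal Fc receptor with an MHC class I fold, was at 4.66 and 5.32 FPKM (0.16).

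Among transcription factors that act at these genes, several had lower values with Indocin. The pioneer factor FOXA1, which opens chromatin in luminal cells, was at 174.6 FPKM with DMSO and 176.4 FPKM with Indocin (0.01). GATA2, another pioneer factor, was at 87.1 and 57.2 FPKM (-0.60), and the homeobox factor HOXB13 at 146.1 and 106.4 FPKM (-0.45). GRHL2, an epithelial factor, was at 74.1 and 63.0 FPKM (-0.23), and SPDEF, an ETS factor of secretory epithelium, at 176.6 and 156 FPKM (-0.18). Coregulators lay mostly above 0: the coactivator NCOA2 was at 7.26 and 9.41 FPKM (0.33) and the corepressor NCOR1 at 12.4 and 14.9 FPKM (0.24). Of 14 such genes 12 were tested, with 7 ratios above 0 and 5 below. In these 12, 2 were at least 1.2-fold lower, GATA2 past 1.5-fold, and 1 at least 1.2-fold higher. Among all tested genes 11.7% were at least 1.2-fold lower, 0.752% at least 1.5-fold lower and 9.90% at least 1.2-fold higher. With the ratios centred on their median or with either scaling, to the upper quartile or to equal sums, none of the 12 was past 1.5-fold. Under each of these settings 2 of the 12 were at least 1.2-fold higher. The median of the 12 was 0.02 as deposited.

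**Figure D4:**
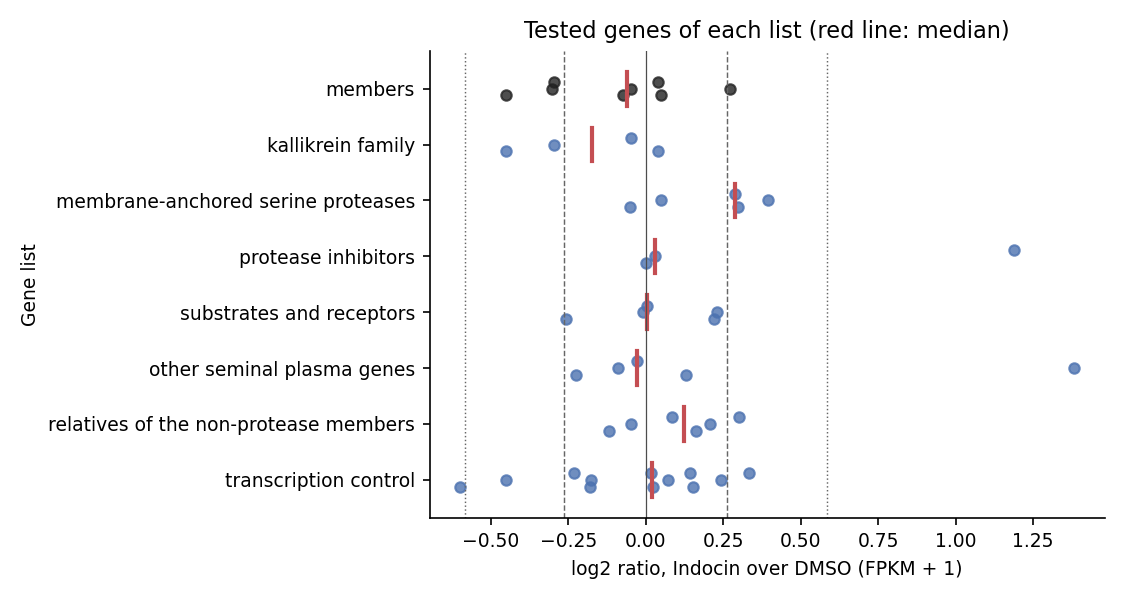
Log2 ratio of Indocin over DMSO (FPKM + 1) for each tested gene (points) of the 8 lists, with the list median as a red line; dashed lines mark 1.2-fold and dotted lines 1.5-fold. The medians lie between -0.17 and 0.29. SERPINA3 (1.19) and LCN2 (1.38) are the points furthest to the right, and GATA2 (-0.60) the one furthest to the left. The tested genes of the kallikrein family list also appear among the members.

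Genes with the nearest pair of levels, by distance in log2(FPKM + 1) over the 2 libraries, were IMP3, CCDC85B and CTXN1 for KLK2 (0.0365, 0.0933 and 0.0952), DKC1, FGFRL1 and NBL1 for KLK3 (0.00972, 0.0116 and 0.0155) and TMEM14C, TMEM9 and NDUFA2 for TMPRSS2 (0.0104, 0.0202 and 0.0233). With 2 libraries such nearness is only a like level and a like ratio. IMP3, for instance, was at 125.3 and 94.3 FPKM (-0.41).

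Markers of prostate luminal cells were present in both libraries, which does not identify the line itself. ETV1, which LNCaP cells are known to express after a rearrangement, was listed at 0.00532 FPKM with DMSO and 0.00547 FPKM with Indocin. All 9 prostate luminal markers were tested, among them KRT8 at 380.8 and 308.6 FPKM (-0.30) and SLC45A3 at 217.6 and 153 FPKM (-0.51). Of these 3, KRT8, SLC45A3 and HOXB13, were at least 1.2-fold lower and 1, the cadherin CDH1 (109.5 and 133.7 FPKM, 0.29), higher. By that fold 11.7% of all tested genes were lower and 9.90% higher. HOXB13 was also counted above among the transcription factors. The summed level of the 9 markers was 1591 FPKM with DMSO and 1406 FPKM with Indocin, or 0.258% and 0.241% of all FPKM. FOLH1, prostate-specific membrane antigen, was at 151.3 and 171 FPKM (0.18) and STEAP2 at 61.4 and 65.5 FPKM (0.09). With the same upper quartile 2 of the 9 were at least 1.2-fold lower, KRT8 no longer among them (-0.23), beside 838 of all 11967 tested genes. KRT19 was at 30.2 and 25.0 FPKM (-0.26), KRT18 at 412.7 and 362.3 FPKM (-0.19) and EPCAM at 81.7 and 80.2 FPKM (-0.03). Of the 9 ratios 3 were above 0 and 6 below, or 4 and 5 with the same upper quartile. Their median was -0.19, against -0.03 for all tested genes, of which 55.2% were below 0. The part of luminal markers in the values of KLK2 and KLK3 was not tested. None of 5 basal markers was tested (summed 1.32 and 1.11 FPKM). Of these sums KRT15 made up 0.745 and 0.747 FPKM, and KRT14 made up 0.545 and 0.318 FPKM. KRT5 and TP63 were listed at 0 with DMSO and at 0.0237 and 0.0105 FPKM with Indocin. Of 8 neuroendocrine markers only ENO2 was tested (33.1 and 31.7 FPKM), with INSM1 listed at 0 in both libraries, and the summed level of the 8 was 33.9 and 32.5 FPKM. Stromal markers summed to 5.60 and 6.02 FPKM, of which COL1A1 made up 4.54 and 4.80 FPKM, with COL1A2, COL3A1 and DCN at 0 in both. Leukocyte and endothelial markers summed to 7.67 and 7.05 FPKM, of which CD68 made up 6.51 and 5.86 FPKM. In a bulk library fewer cells of a kind and less RNA per cell cannot be told apart.

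Each library's depth is unknown in absolute terms. The sum of all FPKM was 617510 with DMSO and 583096 with Indocin. Low values moved in steps that put the worth of 1 fragment at 1.014 times in the Indocin library what it was in the DMSO library, a factor that, times ratios of whole numbers up to 3, matched 39.4% of 1335 genes with a mean under 0.05 FPKM within 1%, against a median of 1.498% over all factors tried. The upper quartile of tested genes was 32.5 and 30.9 FPKM, so scaling to it raises every Indocin ratio. The split of all genes past 1.2-fold was 1185 higher and 1401 lower as deposited, so 45.8% were higher, and 1774 and 838 with the same upper quartile, so 67.9% were higher. No ratio of the 8 tested genes changed sign under the 6 settings that can move a single gene's ratio, nor that of KLKP1 under 5 of them (the trend was fitted to tested genes).

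**Figure D5:**
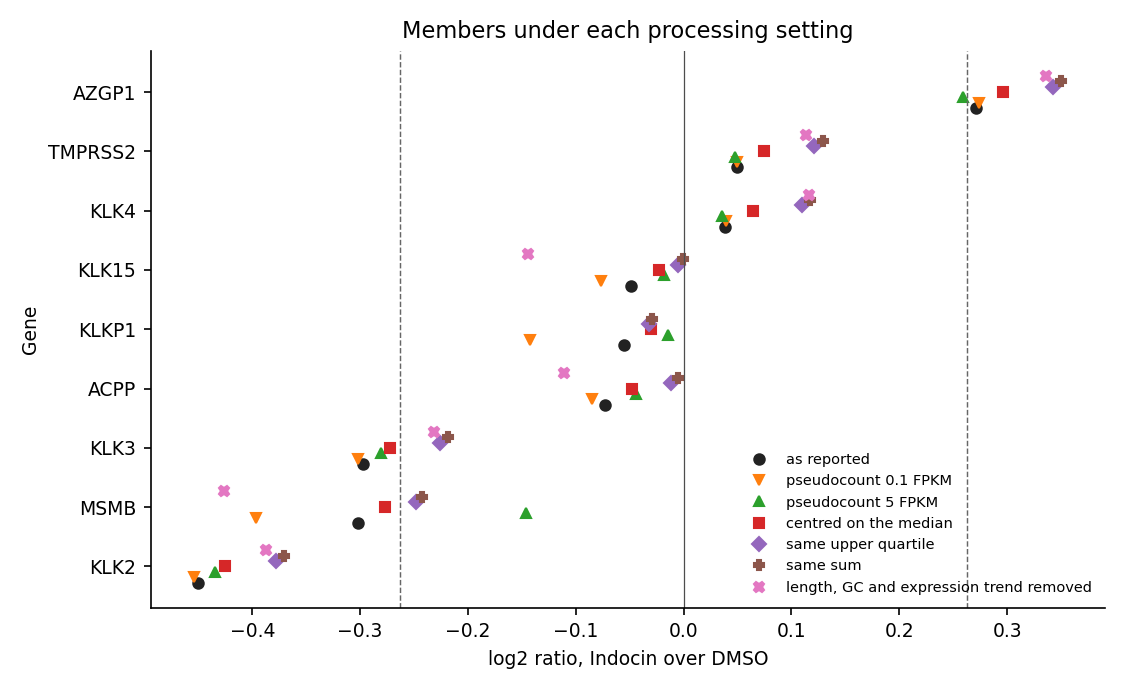
Log2 ratio of Indocin over DMSO for each of the 9 genes under the reported setting (black circles) and each alternative that can move a single gene's ratio; dashed lines mark 1.2-fold. KLK2 stays left of the lower line in all, KLK3 and MSMB cross it in some, AZGP1 crosses the upper line in 1, and no gene crosses 0.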

How the data were processed

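Directional mRNA libraries were made from total RNA of C4-2B MDVR cells, 1 per group, per the labels' protocols. Per the file headers, the deposited unit is FPKM, given for each symbol beside a status, which was OK on every line. Tools named in the submitters' processing notes are Cufflinks, Cuffnorm, StringTie, TopHat and bcl2fastq, and the builds are hg19 and GRCh37. Their versions, the annotation and the use of strand were not given in the sources used here.

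Ratios were taken after adding 1 FPKM to each value. A gene needed a mean of 1 FPKM or more to be tested, and 2041 symbols of short RNA genes were left out. Genes named were the 9 members, the kallikrein family, 3 transcription factors, up to 4 tested genes per list with the largest absolute ratio, and the 3 nearest genes to KLK2, KLK3 and TMPRSS2. ERG, ETV1, GRHL2, SPDEF, SERPINA5, the semenogelins and single markers were named after their values were seen. The members and lists were chosen with earlier results of these data known. Percentages of genes with a lower ratio are ranks, not tests. A count model does not suit FPKM, and without fragment numbers no interval could be given. The calculation was tested on simulated data with an assumed depth, changes larger than 1.2-fold and no spread between cultures. That run checks the arithmetic and cannot bear on the calls at 1.2-fold. Promoters (RefSeq, GRCh38.p14) were searched in Python 3.11.15. The search for windows with mismatches and the trend removal were added after seeing the data. Protein sequences were not used here, and some genes of the lists are not reported.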

Additional observations from a re-analysis of the deposited data

How the results depend on the processing

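With 1 library per group, leaving out a replicate was not possible. No paired analysis was possible because each group has 1 library. The settings tried were a pseudocount of 0.1 or 5 FPKM, a minimum mean of 5 FPKM or none, median centring, the same upper quartile, the same sum, short RNA genes kept and, added after seeing the data, a trend with length, GC content and level removed (3.91% of the variance of the ratios over 11224 genes). KLK3 was under 1.2-fold with the same upper quartile (-0.23), the same sum (-0.22) and the trend removed (-0.23). MSMB was under it with a pseudocount of 5 (-0.15), the same upper quartile (-0.25) and the same sum (-0.24), and AZGP1 with a pseudocount of 5 (0.26). The count of members at least 1.2-fold lower was thus 1 with the same upper quartile and 1 with the same sum, and the count higher was 0 with a pseudocount of 5. No member passed 1.5-fold under any setting, and the cause of these shifts was not tested.

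Over all genes, those at least 1.2-fold higher numbered 1185, and 521 with a pseudocount of 5, 660 with a mean of at least 5 FPKM (fewer genes tested) and 1843 with the same sum. Those at least 1.2-fold lower numbered 1401, and 799 with a pseudocount of 5, 838 with the same upper quartile and 801 with the same sum. At 1.5-fold the higher genes numbered 262, and 420 with a pseudocount of 0.1, 126 with 5 and 168 with a mean of at least 5 FPKM. The lower ones numbered 90, and 189 with a pseudocount of 0.1, 36 with 5, 58 with the same upper quartile and 52 with the same sum. Short RNA genes kept, median centring and no filter moved none of these 4 counts by over 1.5 times.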
